A study of Homo sapiens with 6 samples.

Results

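The genes described here are SCIN, FYN, LPL, ALDH1A1, NEDD4L, CDH18, DCAF4L2 and FAM171A1, 8 autosomal genes of the 58288 genes measured. They were chosen by their measured levels, as genes much higher in K562 cells rescued with one SUMO mutant of the transcription factor MYB than in cells rescued with the other. Their difference between the rescues is therefore given as a description, with no test. SCIN, FYN, LPL, ALDH1A1 and NEDD4L were higher with the 2KR mutant, from 349-fold for SCIN to 2.48-fold for NEDD4L. CDH18, FAM171A1 and DCAF4L2 were higher with the ANAA mutant, by 10.5-fold, 6.89-fold and 6.2-fold. The relatives and partners of each gene, its neighbours on the chromosome and the spread between replicates are given beside these levels. These are not independent of the choice. The lists were chosen with earlier results of these data known, and the spread comes from the same values as the choice.

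K562 is an established human erythroleukemic cell line. In both groups endogenous MYB was targeted with the siRNA si2992, which does not match the rescue constructs, and RNA was taken 24 h after transfection from cells kept under 200 µg/ml G418. The 2KR-MYB rescue stably expressed 3xFLAG-2KR-Myb-HA, in which the lysines that accept SUMO are replaced by arginine, and the ANAA-MYB rescue stably expressed 3xFLAG-ANAA-Myb-HA, in which the motif that binds SUMO is mutated. Each group had 3 biological replicates by the design, and each mutant was carried by 1 single cell clone, so the mutation and the clone cannot be told apart. Control, knockdown and WT-MYB rescue cells were not analysed here, so which of the 2 clones departed from the parental cells is not given. Libraries were stranded and poly(A)-selected, and expression is given as FPKM, a fragment count scaled by transcript length and library size, which is a level per length and can be compared between genes.

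Summed FPKM ran from 579920 to 633662 over the 6 libraries, and 12471 to 12772 genes per library reached 1 FPKM. The depth behind them is unknown. MYB itself, with reads of the constructs included, stood at 69, 61.2 and 67.5 FPKM with 2KR-MYB and at 53.6, 55.3 and 62 FPKM with ANAA-MYB, and its libraries overlapped. All 12 erythroid markers looked at were expressed, led by the fetal globin gene HBG2. Their summed level ran from 1820 to 1950 FPKM with 2KR-MYB and from 2070 to 2480 FPKM with ANAA-MYB. Differences below are log2(FPKM + 1) with 2KR-MYB minus ANAA-MYB, a scale that understates the change of genes at low levels. Genes averaging 1 FPKM or more were tested, 12634 in all, and 1642 (13.0%) passed an adjusted p of 0.01 in limma. Of these, 704 were on the 2KR-MYB side and 938 on the ANAA-MYB side, a balance that depended on the scaling. In bulk RNA, fewer cells that express a gene and less RNA per cell cannot be told apart.

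The 8 genes belong to no common pathway. SCIN encodes scinderin, a calcium-dependent protein of the gelsolin family that severs actin filaments, and FYN a tyrosine kinase of the SRC family held at the inner face of the plasma membrane. LPL encodes lipoprotein lipase, which frees fatty acids from the triglycerides of circulating lipoproteins, and ALDH1A1 an aldehyde dehydrogenase that oxidises retinaldehyde to retinoic acid. NEDD4L is a HECT-type ubiquitin ligase best known for removing the epithelial sodium channel from the cell surface, and DCAF4L2 is named as a substrate receptor of the CUL4 ubiquitin ligases. CDH18 is a type II cadherin known mainly from the nervous system, and FAM171A1 is a membrane protein with a single transmembrane segment. MYB keeps blood progenitors immature and proliferating, and conjugation of SUMO restrains its activity.

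The stretch of 250 bases before the RefSeq start (GRCh38.p14) is shown for the 3 genes with 1 listed start, because they differ widely in composition. The FAM171A1 start listed lies inside the span given for the gene, which reaches 15374554, so its window describes the stretch before that start and not before the end of the gene. Capitals mark matches to the letters searched, and each sequence is written 5′ to 3′ on the strand of the gene.
SCIN, chr7:12570470-12570719, plus strand: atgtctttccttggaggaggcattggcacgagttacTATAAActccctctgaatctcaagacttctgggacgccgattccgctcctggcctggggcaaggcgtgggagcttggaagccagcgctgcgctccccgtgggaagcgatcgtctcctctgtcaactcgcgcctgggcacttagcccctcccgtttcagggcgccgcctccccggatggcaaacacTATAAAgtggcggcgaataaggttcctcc
ALDH1A1, chr9:72953054-72953303, minus strand: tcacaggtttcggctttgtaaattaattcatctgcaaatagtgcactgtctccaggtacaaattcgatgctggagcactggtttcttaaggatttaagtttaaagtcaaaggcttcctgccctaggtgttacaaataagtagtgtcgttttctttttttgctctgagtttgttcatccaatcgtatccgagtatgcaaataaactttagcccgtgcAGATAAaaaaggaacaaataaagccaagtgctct
FAM171A1, chr10:15371290-15371539, minus strand: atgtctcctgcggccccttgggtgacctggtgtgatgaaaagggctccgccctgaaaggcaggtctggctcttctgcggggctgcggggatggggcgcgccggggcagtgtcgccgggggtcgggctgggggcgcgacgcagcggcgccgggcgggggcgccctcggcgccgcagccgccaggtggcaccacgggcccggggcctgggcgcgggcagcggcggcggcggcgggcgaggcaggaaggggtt
The SCIN window had 60% G and C with 18 CpG, and the capitals are TATAAA at 214 to 209 and at 29 to 24 bases before the start. The ALDH1A1 window was poor in G and C (38.4%, 6 CpG), and its capitals are the GATA letters AGATAA at 34 to 29 bases before the start. The FAM171A1 window was rich in them (78.4%, 32 CpG) and held none of the letters searched.

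Over all 35114 RefSeq windows of that length the median content of G and C was 58%, with quartiles of 46.4% and 68%. On either strand TATAAA occurred in 10.7% of these windows, AGATAA in 9.17%, and the MYB letters TAACNG or CAACNG in 39.3%. Windows were found for 6 of the 8 genes, 15 windows in all because FYN, CDH18 and NEDD4L have several starts. The MYB letters stood in 4 of the 15, in windows of CDH18, FYN and NEDD4L, AGATAA in 4 and TATAAA in 1. A match is a match of letters and not a binding site. The windows of SCIN and ALDH1A1, both higher with 2KR-MYB, lay on either side of the median content.

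SCIN (ENSG00000006747, chromosome 7, 12570720 to 12660182) had the largest difference of the 8. Its libraries stood at 48.5, 50 and 53.8 FPKM with 2KR-MYB and at 0.123, 0.109 and 0.204 FPKM with ANAA-MYB. The lowest 2KR-MYB library was 237-fold above the highest ANAA-MYB library, and the 2KR-MYB libraries lay close together, while the highest ANAA-MYB library was 1.87-fold above the lowest. The means were 50.8 ± 2.76 and 0.145 ± 0.0515 FPKM (SD, n = 3 each), a difference of 5.50 on the log2 scale. Among the 11119 autosomal genes tested it was the largest difference towards 2KR-MYB. In the order of all tested genes its level lay above 83.7% of them with 2KR-MYB and above 0.198% with ANAA-MYB. A share of its transcript sequence, 285 of 11831 stretches of 75 bases (2.41%), also occurs in the gene ENSG00000229233, and the other 7 genes shared none with any gene.

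The other members of the gelsolin family are set beside SCIN, which was itself picked for its large difference. Of 7 looked at, 5 were tested and 1 passed (20%, beside 13.0% of all tested genes). Their median difference was 0.011 against −0.015 for all tested genes. The gene that passed was GSN, which encodes gelsolin itself: it stood at 18.4 ± 1.92 FPKM with 2KR-MYB and 12.7 ± 1.23 FPKM with ANAA-MYB (difference 0.50, SE 0.091, limma adjusted p = 0.0056). That call was lost whichever of the 6 libraries was left out, with adjusted p between 0.0033 and 0.030 over the alternatives. CAPG, a capping protein and the most expressed of the family, stood at 75.1 ± 5.01 and 80.7 ± 2.26 FPKM (adjusted p = 0.22).

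FYN (ENSG00000010810, chromosome 6, 111660332 to 111873452) measured 7.34, 9.39 and 7.73 FPKM with 2KR-MYB and 0.676, 1.18 and 0.395 FPKM with ANAA-MYB. The groups did not overlap, and the low group was the more uneven, its highest library 2.98-fold above its lowest. The means of 8.15 ± 1.09 and 0.75 ± 0.397 FPKM (SD, n = 3 each) differed 10.9-fold, or by 2.40 on the log2 scale. With ANAA-MYB the gene lay above 0.792% of tested genes and with 2KR-MYB above 37.1%.

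FYN is one of several SRC family kinases of these cells, and LYN and YES1 were expressed more strongly. LYN, whose product acts downstream of receptors of blood cells, stood at 37.8 ± 0.724 FPKM with 2KR-MYB and 38.3 ± 1.75 FPKM with ANAA-MYB (difference −0.016, limma adjusted p = 0.84). Of the 12 kinases and regulators listed, 6 were tested and 2 passed (33.3%, beside 13.0% of all tested genes). Both were lower with 2KR-MYB, the opposite side to FYN. YES1, a close relative of FYN, was at 28.9 ± 1.89 and 39.3 ± 4.16 FPKM (difference −0.43, SE 0.083, adjusted p = 0.0070 from limma). CSK, the kinase that switches the family off by phosphorylation of the tail, was at 43 ± 1.95 and 52.3 ± 1.67 FPKM (difference −0.28, SE 0.051, adjusted p = 0.0061 from limma). The CSK call was lost whichever of the 6 libraries was left out, and also with upper quartile scaling, quantile normalization and no filter on low values (adjusted p from 0.005 to 0.024 over the alternatives). The YES1 call passed only without the first ANAA-MYB library among those 6 fits and was also lost with no filter on low values (adjusted p from 0.0043 to 0.035). SRC stood at 3 ± 0.162 and 4.26 ± 0.577 FPKM and missed the threshold (limma adjusted p = 0.021). The most expressed gene of the list, the phosphatase gene PTPN1, was at 59.8 ± 2.25 and 61.3 ± 2.72 FPKM (adjusted p = 0.65). The lymphoid kinase gene LCK was under 0.2 FPKM in every library.

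Lymphoid markers were looked at because FYN is prominent in T cells. Of the 4, CD3D was lower with 2KR-MYB, the opposite side to FYN. It stood at 27.8 ± 2.47 FPKM with 2KR-MYB and 52.9 ± 9.97 FPKM with ANAA-MYB (difference −0.89, SE 0.13, limma adjusted p = 0.0020). The defining markers CD3E and MS4A1 were low, CD3E at 0.253 and 0.358 FPKM on average and MS4A1 listed at 0 in all 6 libraries. The 4 summed to 28.4 to 32.6 FPKM with 2KR-MYB and 45.2 to 65.1 FPKM with ANAA-MYB. Their part in the FYN difference was not tested.

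**Figure D1:**
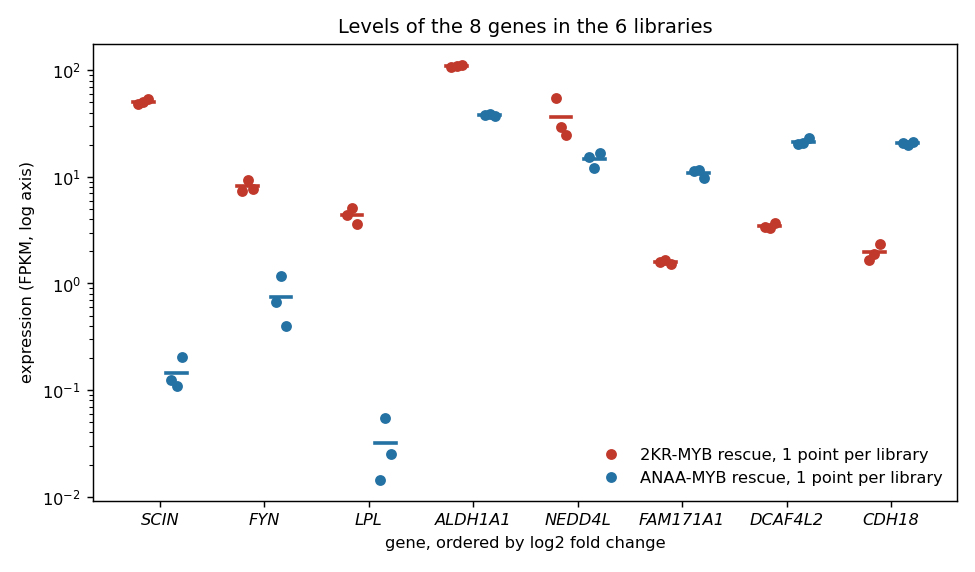
Level of each of the 8 genes in FPKM on a log axis, with 1 point per library and a short line at the mean of the 3 libraries of each rescue (red 2KR-MYB, blue ANAA-MYB), ordered by log2 fold change. For each gene the 2 groups do not overlap, and LPL and SCIN lie lowest with ANAA-MYB, at means of 0.0315 and 0.145 FPKM.

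Both metabolic enzymes were higher with 2KR-MYB, one from near 0 and one from a high level. LPL (ENSG00000175445, chromosome 8, 19939253 to 19967259) measured 4.44, 5.07 and 3.6 FPKM with 2KR-MYB and 0.0143, 0.055 and 0.0252 FPKM with ANAA-MYB. Every ANAA-MYB library was thus near 0, and the lowest 2KR-MYB library was 65.6-fold above the highest of them. The means were 4.37 ± 0.738 and 0.0315 ± 0.0211 FPKM (SD, n = 3 each). Their ratio of 139 is far larger than the log2 difference of 2.37 on log2(FPKM + 1) conveys, and at a level this low it rests on few fragments of unknown number.

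The partners of lipoprotein lipase were mostly not expressed. Of 17 relatives and handling factors 4 were tested, and only SEL1L passed (25%, beside 13.0% of all tested genes). SEL1L is a factor needed for the enzyme to leave the endoplasmic reticulum. It was at 24.4 ± 1.22 FPKM with 2KR-MYB and 18.3 ± 0.498 FPKM with ANAA-MYB (difference 0.40, SE 0.055, limma adjusted p = 0.0017), and the call held in each of the 6 fits without 1 library. LMF1, which folds the enzyme, stood at 1.73 ± 0.397 and 0.896 ± 0.242 FPKM and did not pass (limma adjusted p = 0.031). LIPG, the endothelial lipase gene and a near relative, was below the level for testing at 1.19 ± 0.0893 and 0.402 ± 0.0877 FPKM, with no overlap of libraries. Libraries of the rescues were likewise apart in 44.9% of all tested genes. GPIHBP1, the capillary anchor of the enzyme, ANGPTL4, its inhibitor, and VLDLR, a receptor for remnant particles, averaged under 0.2 FPKM in both rescues.

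ALDH1A1 (ENSG00000165092, chromosome 9, 72900671 to 72953053) was the most expressed of the 8 in both rescues. It stood at 108, 110 and 113 FPKM with 2KR-MYB and at 37.8, 39.3 and 37.6 FPKM with ANAA-MYB. Here the groups were far apart although the lower group was still well expressed, above 77.4% of tested genes. The means of 110 ± 2.89 and 38.2 ± 0.931 FPKM (SD, n = 3 each) differed 2.88-fold, or by 1.50 on the log2 scale. With 2KR-MYB its libraries were the tightest of the 8 genes, with an SD of 0.0374 on the log2 scale.

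Retinoic acid synthesis and response was the list with the most calls around a member, 5 of 12 tested genes (41.7%, beside 13.0% of all tested genes). Of the 20 genes listed, 2 passed as higher and 3 as lower with 2KR-MYB, and the median difference was −0.027. The list also holds aldehyde dehydrogenases outside this pathway, such as ALDH1L2, which is among the 5 calls. The most expressed gene was the sister enzyme ALDH1A2 at 734 ± 61.5 and 671 ± 63.2 FPKM (difference 0.13, limma adjusted p = 0.29), well above ALDH1A1, and ALDH1A3 was listed at 0 in all 6 libraries. STRA6, the membrane receptor that takes up retinol, measured 3.21, 4.03 and 2.36 FPKM with 2KR-MYB and 0.056, 0.0779 and 0.0805 FPKM with ANAA-MYB. That is a difference of 1.95 (SE 0.15, limma adjusted p = 0.00013), a near-silent to expressed pattern like that of LPL. Like LPL, STRA6 reached the level for testing only through its 2KR-MYB libraries, so its call depends on that filter. ALDH1L2, a mitochondrial folate enzyme of the same superfamily, was at 7.38 ± 0.582 and 4.42 ± 0.124 FPKM (difference 0.63, adjusted p = 0.00082 from limma).

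The retinol dehydrogenases were lower with 2KR-MYB. RDH10, which makes retinaldehyde from retinol, was at 26.5 ± 2.13 FPKM with 2KR-MYB and 49 ± 5.22 FPKM with ANAA-MYB (difference −0.86, SE 0.087, limma adjusted p = 0.00044). RDH11 and DHRS3, which turn retinaldehyde back to retinol, each had a difference of −0.37 (limma adjusted p of 0.0014 and 0.0022). Calls of STRA6, ALDH1L2, RDH10 and RDH11 held in each of the 6 fits without 1 library. DHRS3 was lost without the first 2KR-MYB or the second ANAA-MYB library, with adjusted p between 0.0016 and 0.012 under the alternatives tried. ALDH1L1, another folate enzyme, was below the level for testing and listed at 0, 0 and 0.109 FPKM with 2KR-MYB against 1.84, 2.43 and 1.04 FPKM with ANAA-MYB.

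NEDD4L (ENSG00000049759, chromosome 18, 58044226 to 58401540) had the largest SD of log2(FPKM + 1) within a rescue of the 8 genes. It stood at 55.5, 29.2 and 24.5 FPKM with 2KR-MYB and at 15.4, 12.1 and 16.7 FPKM with ANAA-MYB. The groups did not overlap, but the first 2KR-MYB library was 2.27-fold above the third. The means were 36.4 ± 16.7 and 14.7 ± 2.37 FPKM (SD, n = 3 each), a 2.48-fold difference and 1.18 on the log2 scale. Without the first 2KR-MYB library the log2 difference was 0.83, and the mean of the other 2 libraries was 26.9 FPKM, 1.83-fold the ANAA-MYB mean. The smallest gap between the groups, 1.47-fold, was also that of NEDD4L.

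That first library exceeded the mean of the other 2 by 1.03 on the log2 scale in NEDD4L, and only 25 of the 12634 tested genes had a larger excess there. In SD over the 2KR-MYB libraries NEDD4L, at 0.605, exceeded 99.8% of the 500 genes nearest to it in level, whose median SD was 0.0651. With ANAA-MYB its SD of 0.226 exceeded 96.8% of them. The relatives of NEDD4L gave no call: of 11 listed 10 were tested and none passed the adjusted p of 0.01 in limma, whereas 6 had an unadjusted p under 0.05. Their median difference was 0.14. Among all tested genes 13.0% passed, and 3402 of the 12634 had even an adjusted p under 0.05. An unadjusted p under 0.05 was thus common. NEDD4, the founding member of the family, was at 28.8 ± 1.06 and 29.2 ± 1.24 FPKM (limma adjusted p = 0.85). SGK1, the kinase that inactivates NEDD4L by phosphorylation, was at 16 ± 0.582 and 12.4 ± 1.31 FPKM (difference 0.34, limma adjusted p = 0.015). The adaptor gene NDFIP1 was the most expressed of the list at 35 ± 0.739 and 32.2 ± 0.315 FPKM (adjusted p = 0.077). HECW1, the relative not tested, was below the level for testing at 0.207 ± 0.189 FPKM with 2KR-MYB and 1.52 ± 0.327 FPKM with ANAA-MYB. Its 2KR-MYB libraries all lay below its ANAA-MYB libraries, the opposite side to NEDD4L. Libraries were apart, in either direction, in 44.9% of all tested genes.

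**Figure D2:**
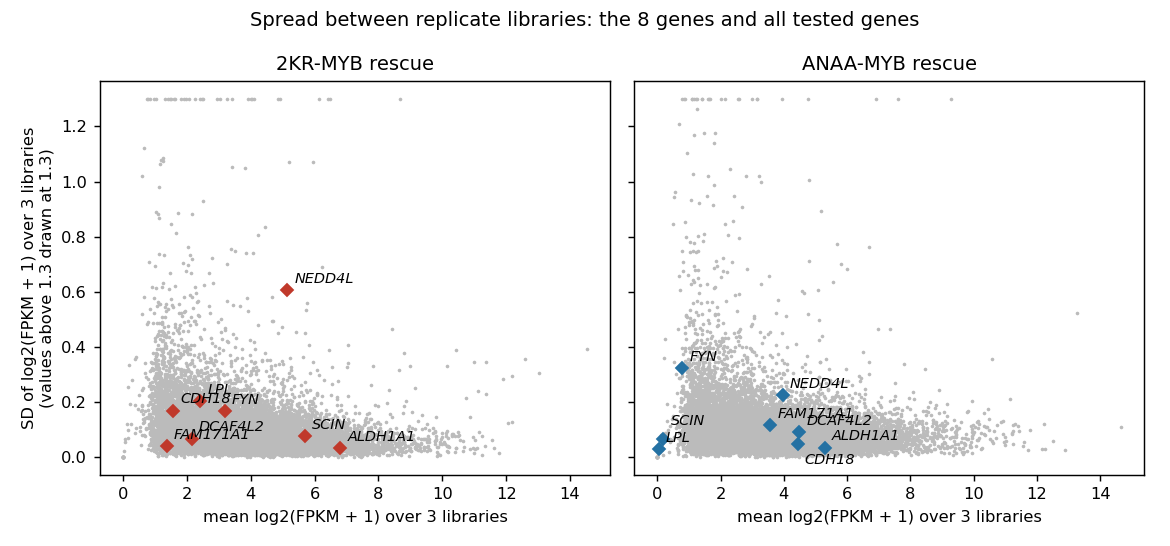
Spread between replicate libraries (SD of log2(FPKM + 1) over 3 libraries) against the mean level for the tested genes (grey points) and the 8 genes (diamonds), with 2KR-MYB left and ANAA-MYB right; SD values above 1.3 are drawn at 1.3. NEDD4L stands out of the grey cloud with 2KR-MYB at an SD of 0.605, whereas ALDH1A1 and FAM171A1 lie low in it at 0.0374 and 0.0395.

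DCAF4L2 (ENSG00000176566, chromosome 8, 87870747 to 87874015), a gene otherwise known mainly from testis, was higher with ANAA-MYB. It stood at 3.38, 3.31 and 3.7 FPKM with 2KR-MYB and at 20.6, 20.7 and 23.1 FPKM with ANAA-MYB. Libraries were even within each rescue, and the groups were 5.56-fold apart at their closest. The means of 3.46 ± 0.212 and 21.4 ± 1.44 FPKM (SD, n = 3 each) gave a difference of −2.33 on the log2 scale.

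DCAF4, the gene it is named after, was at 15.6 ± 2.07 FPKM with 2KR-MYB and 17.5 ± 0.386 FPKM with ANAA-MYB (limma adjusted p = 0.20). The other copy, DCAF4L1, was below the level for testing at 0.447 and 0.597 FPKM on average. Of the 20 relatives and subunits of the CUL4 ligase 19 were tested and 4 passed (21.1%, beside 13.0% of all tested genes), each higher with 2KR-MYB, with a median difference of −0.009. DDB2, a substrate receptor for damaged DNA, was at 8.81 ± 0.75 and 6 ± 0.299 FPKM (difference 0.48, limma adjusted p = 0.0031). CRBN, the receptor bound by thalidomide, and DCAF7 each had a difference of 0.31 (adjusted p of 0.0033 and 0.0058 from limma), and DCAF10 one of 0.25 (adjusted p = 0.0094). None of these 4 calls held in all 6 fits without 1 library. DDB2 was lost without the second 2KR-MYB, the second ANAA-MYB or the third ANAA-MYB library, and DCAF10 without any of the 6. CRBN passed only without the third ANAA-MYB library and DCAF7 only without the second, and over all alternatives the highest adjusted p of the 4 ran from 0.015 for DDB2 to 0.039 for DCAF10. DDB1, the shared linker and the most expressed, was at 121 ± 3.78 and 117 ± 10.2 FPKM (limma adjusted p = 0.63).

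Both surface proteins were also higher with ANAA-MYB. CDH18 (ENSG00000145526, chromosome 5, 19471296 to 20575713) measured 1.67, 1.89 and 2.36 FPKM with 2KR-MYB and 20.8, 19.9 and 21.3 FPKM with ANAA-MYB. The 2 groups were 8.44-fold apart at their closest, and the high group was even. The means of 1.97 ± 0.35 and 20.7 ± 0.712 FPKM (SD, n = 3 each) differed by −2.87 on the log2 scale, the largest difference towards ANAA-MYB among the 8.

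Of the cadherins listed, CDH18 and CDH24 alone reached the level for testing, and with ANAA-MYB CDH18 was the higher. CDH2, CDH6 and CDH10 were listed at 0 in all 6 libraries, and CDH12, also on chromosome 5, averaged 0.0843 and 0.113 FPKM. Of the 20 cadherins and catenins 5 were tested and 1 passed (20%, beside 13.0% of all tested genes). It was CDH24, also a type II cadherin, at 4.32 ± 0.151 FPKM with 2KR-MYB and 7.93 ± 0.639 FPKM with ANAA-MYB (difference −0.74, SE 0.075, limma adjusted p = 0.00040), and the call held in each of the 6 fits without 1 library. The catenins that link cadherins to actin were well expressed in both: CTNNB1 was at 72.3 ± 0.916 and 64.2 ± 1.7 FPKM (limma adjusted p = 0.022) and JUP, the most expressed of the list, at 76.5 ± 3.68 and 69.1 ± 1.58 FPKM (limma adjusted p = 0.068).

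FAM171A1 (ENSG00000148468, chromosome 10, 15211643 to 15374554) measured 1.58, 1.66 and 1.52 FPKM with 2KR-MYB and 11.3, 11.6 and 9.87 FPKM with ANAA-MYB. The low group was nearly level, and the groups were 5.95-fold apart at their closest. The means of 1.59 ± 0.071 and 10.9 ± 0.936 FPKM (SD, n = 3 each) differed by −2.20 on the log2 scale. FAM171A2 was at 1.74 ± 0.116 and 2.07 ± 0.155 FPKM and did not pass (difference −0.16, limma adjusted p = 0.23; its unadjusted p was also not under 0.05). FAM171B was below the level for testing, at 0.342 ± 0.0136 and 0.77 ± 0.0375 FPKM, with every 2KR-MYB library below every ANAA-MYB library. Such a separation, in either direction, was seen in 44.9% of all tested genes.

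**Figure D3:**
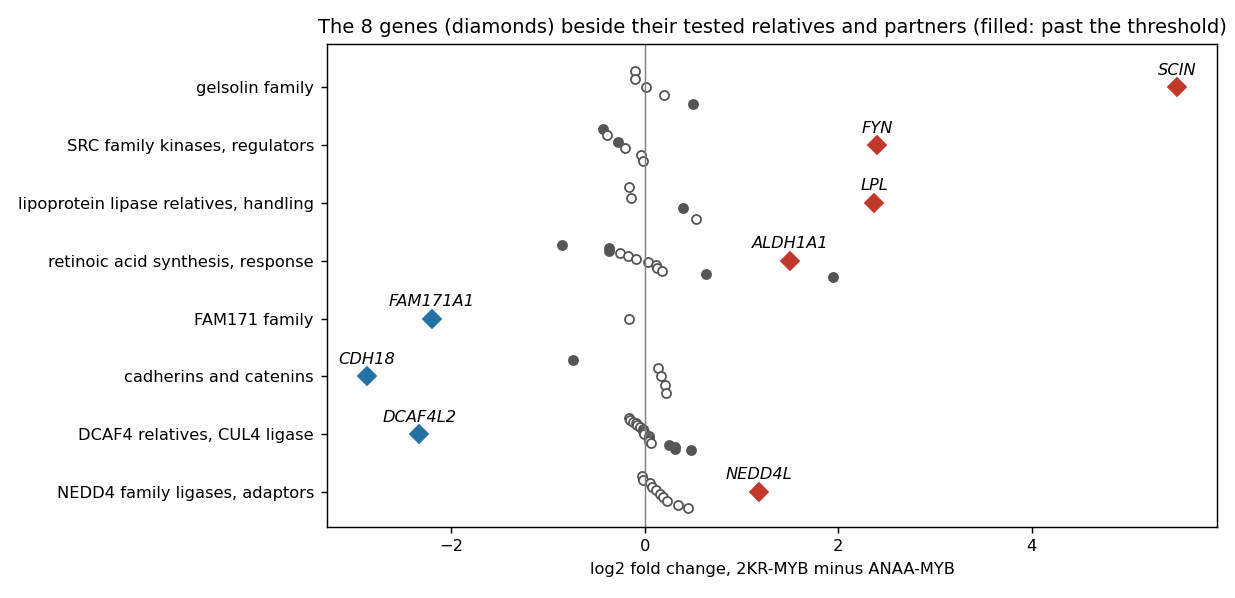
Log2 fold change (2KR-MYB minus ANAA-MYB) of the 8 genes (diamonds, red higher and blue lower with 2KR-MYB) and of the tested genes of their families and pathways (circles, filled where limma's adjusted p was under 0.01). The 62 relatives and partners tested lie mostly near 0, with a median of 0.024, and STRA6 at 1.95 is the farthest of them.

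Across the 8 lists together, 62 of 109 relatives and partners were tested and 14 passed (22.6%), 8 higher and 6 lower with 2KR-MYB, beside 13.0% of all tested genes. Of the 14 calls, 6 held in each of the 6 fits without 1 library: SEL1L, RDH11, RDH10, ALDH1L2, STRA6 and CDH24. Among these, STRA6 reached the level for testing only through its 2KR-MYB libraries. No call changed direction in those fits or in the 8 other alternatives.

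By level, the order with 2KR-MYB was ALDH1A1, SCIN, NEDD4L, FYN, LPL, DCAF4L2, CDH18 and FAM171A1. Here SCIN overlapped NEDD4L and LPL overlapped DCAF4L2, while the other neighbours in the order were apart. With ANAA-MYB the order was ALDH1A1, DCAF4L2, CDH18, NEDD4L, FAM171A1, FYN, SCIN and LPL, and only DCAF4L2 and CDH18 overlapped. SCIN thus went from the second place to the seventh, and ALDH1A1 kept the first. All 8 genes passed the filter on low values, but SCIN, FYN and LPL did so through their 2KR-MYB libraries. The libraries of the rescues were apart in each of the 8, as they were in 44.9% of all tested genes, and nothing is read from this because the genes were picked for it.

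Many other autosomal genes had a difference as large, some of them resting on 1 library. Of the 11119 tested, 108 had a difference at least as large as that of NEDD4L, 53 of them on the 2KR-MYB side and 55 on the other, and the 8 genes are among these. On its side SCIN ranked 1, FYN 3, LPL 4, ALDH1A1 24 and NEDD4L 53. On the ANAA-MYB side CDH18 ranked 6, DCAF4L2 8 and FAM171A1 10. ZNF677, for example, a zinc finger gene next after LPL in this order, was at 4.57 ± 0.32 and 0.109 ± 0.02 FPKM. Some genes ranked above members of the 8 did not pass in limma. MIR3661, above FYN, and RNU6-892P, above CDH18, were above 0 in only 1 library. MEF2C, above DCAF4L2, owed its difference to the third ANAA-MYB library. The small RNA genes MIR4737 and MIR1260B, above CDH18, were uneven between libraries.

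For each gene the 5 tested genes before it and the 5 after it on the chromosome were then looked at. Of the 80 neighbours, 16 (20%) passed, beside 13.0% of all tested genes, and 10 of these held in each of the 6 fits without 1 library. No neighbour that passed differed as much as the gene it lies beside, and the medians over the 10 neighbours ran from −0.58 beside LPL to 0.17 beside NEDD4L.

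No neighbour of SCIN passed on its side. VWDE, next before SCIN, had a difference of 0.18 (limma adjusted p = 0.13). SOSTDC1, over 3 Mb away, passed on the other side, with a difference of −0.61 (adjusted p = 0.0011 from limma). Beside FYN, TUBE1, which encodes epsilon-tubulin, was at 25.2 ± 0.726 and 15.4 ± 0.781 FPKM (difference 0.68, SE 0.056, limma adjusted p = 0.00016), on the same side as FYN. TRAF3IP2 before FYN had a difference of 0.15 (adjusted p = 0.19), and GTF3C6, farther off, was lower with 2KR-MYB (−0.30, limma adjusted p = 0.0039, of the 6 fits without 1 library passing only in that without the first ANAA-MYB library).

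LPL differed in the opposite direction to its neighbours. All 10 neighbours had a negative difference where that of LPL was 2.37, and 5 of them passed, PCM1, ASAH1, NAT1, INTS10 and XPO7. NAT1 passed only without the second ANAA-MYB library among the 6 fits without 1 library, and the other 4 passed in each of them. INTS10, a subunit of the Integrator complex 87.2 kb before LPL, was at 34.3 ± 4.1 FPKM with 2KR-MYB and 58.8 ± 4 FPKM with ANAA-MYB (difference −0.76, SE 0.086, limma adjusted p = 0.00066). PCM1, a centrosome protein gene, had a difference of −0.73 (limma adjusted p = 0.00026) and was at 44.3 ± 1.31 and 74.2 ± 6.72 FPKM. Next after LPL, ATP6V1B2, a subunit of the vacuolar proton pump, had a difference of −0.10 (limma adjusted p = 0.17). The value of −3.95 for the small RNA gene RNU6-892P, the lowest of the 10, came from 1 ANAA-MYB library.

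ALDH1A1 had no neighbour on its side that passed. ZFAND5 before it had a difference of 0.079 (limma adjusted p = 0.36), and ANXA1 after it, the gene of annexin A1, was at 448 ± 55.2 and 360 ± 24 FPKM (difference 0.31, adjusted p = 0.042). GDA, a guanine deaminase gene, was lower with 2KR-MYB (−0.48, limma adjusted p = 0.0066), a call that passed only without the third 2KR-MYB or the second ANAA-MYB library among the 6 fits without 1 library. Around NEDD4L 8 of 10 neighbours leaned to its side and 2 passed. PMAIP1, which encodes the BH3-only protein NOXA, was at 47.1 ± 8.29 and 26.3 ± 1.15 FPKM (difference 0.80, SE 0.12, limma adjusted p = 0.0021), and SEC11C, a signal peptidase subunit, had a difference of 0.33 (limma adjusted p = 0.0034, passing in the same 2 of those 6 fits). PMAIP1 did not share the excess of NEDD4L in the first 2KR-MYB library: it stood there at 52.3 FPKM beside 51.5 and 37.6 FPKM. The genes next to NEDD4L, NARS1 and MALT1, had differences of 0.0051 and 0.31 (adjusted p of 0.96 and 0.055 from limma).

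CDH18 lies in a gene-poor region, and its 10 neighbours span 19 Mb. The long non-coding RNA gene LINC02241, 36.1 kb after it, was on the same side: it measured 0.497, 0.0197 and 0.169 FPKM with 2KR-MYB and 2.55, 3.42 and 5.16 FPKM with ANAA-MYB (difference −1.92, SE 0.22, limma adjusted p = 0.00068). This call held in each of the 6 fits without 1 library, but LINC02241 reached the level for testing only through its ANAA-MYB libraries. ANKH and TRIO, over 4 Mb before CDH18, were on the other side, ANKH at 3.73 ± 0.182 and 0.998 ± 0.144 FPKM (difference 1.25, limma adjusted p = 0.00011) and TRIO with a difference of 1.12 (limma adjusted p = 0.0017). Both averaged under 1 FPKM with ANAA-MYB and so reached the level for testing through their 2KR-MYB libraries. The fourth neighbour past the threshold, the long non-coding RNA gene PURPL, had a difference of −0.76 (limma adjusted p = 0.0046) and passed only without the third 2KR-MYB library among those 6 fits. ZNF622, next before CDH18, had a difference of 0.056 (adjusted p = 0.62).

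Neither DCAF4L2 nor FAM171A1 had a neighbour past the threshold in limma, although 3 and 6 of their 10 neighbours had an unadjusted p under 0.05. Such a p was common, since 3402 of the 12634 tested genes had even an adjusted p under 0.05. Nothing is read from these 2 counts. CPNE3 and RIPK2, next to DCAF4L2, had differences of −0.15 and 0.10 (adjusted p of 0.068 and 0.40). Beside FAM171A1, 9 of 10 neighbours leaned to its side, with a median of −0.17. The nearest were NMT2 at −0.25 and MINDY3 at −0.20 (adjusted p of 0.028 and 0.067 from limma).

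**Figure D4:**
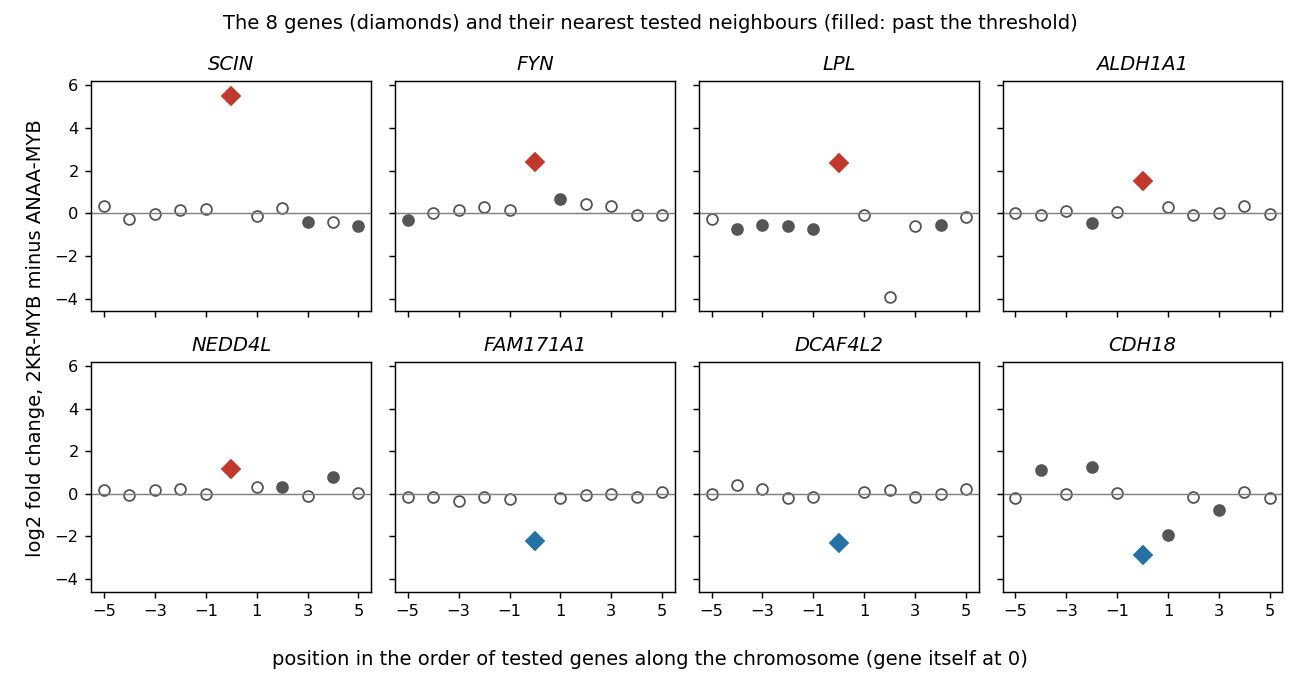
Log2 fold change (2KR-MYB minus ANAA-MYB) of each of the 8 genes (diamond at 0) and of the 5 tested genes on either side of it in chromosome order (circles, filled where limma's adjusted p was under 0.01). SCIN lies at 5.50 and its neighbours between −0.61 and 0.34, LPL lies above 10 neighbours that are all below 0, and LINC02241 at −1.92 lies next to CDH18.

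The tested genes whose log2 levels followed each of the 8 most closely over the 6 libraries were also found, by Pearson r. Such r is high for any gene with a wide and even difference between the 2 rescues, so it is given as a description. For SCIN they were ALDH1A1 (0.9992) and the unnamed gene ENSG00000269246 (0.9992), and for ALDH1A1 BTG2 (0.9993) and SCIN. FYN was closest to CPEB2 (0.9979) and IGFL2 (0.9976), and LPL to ZNF416 (0.9993). Among genes higher with ANAA-MYB, CDH18 was closest to the cancer-testis gene MAGEA1 (0.9996) and ICAM4 (0.9995). MAGEA1 was also the second closest to DCAF4L2 (0.9996), after STXBP5 (0.9997), and FAM171A1 was closest to ENSG00000257883 (0.9996) and TMEM179B (0.9993). From 48 genes for FYN to 139 for CDH18 exceeded an r of 0.99, but for NEDD4L only 1 did, CUEDC1 (0.9911), followed by CCT6B (0.9890). The 2KR-MYB libraries of CUEDC1 stood at 2.8, 2.3 and 2.03 FPKM, so that it too was highest in the first.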

How the data were processed

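The deposited values are FPKM, 1 per gene and library, which the authors made from 150 bp read pairs. Their processing notes name bcl2fastq 2.18.0.12, Trimmomatic 0.36, TopHat2 2.1.1, Cufflinks, Cuffdiff 2.2.1 and the build GRCh38. The gene annotation they used is not given in the sources used here. FPKM values hold no read counts, and ratios of values under 0.5 FPKM between libraries shared no common step (at most 7.43% of them within one step of 2%), so no test on counts was made. A further 12 columns hold values of single samples and were not used, and groups follow the labels.

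The members and the lists were chosen with earlier results of these data known. Testing was limited to genes averaging 1 FPKM or more over all 6 libraries, and values were log2(FPKM + 1). The model was fitted in limma 3.58.1 (R 4.3.3, rescue as the only term, empirical Bayes with trend, two-sided, Benjamini-Hochberg adjusted p under 0.01 over 12634 genes). The fit was tested on simulated data. Named are the 8 genes, MYB, at most 4 called genes and the most expressed gene of each list, for each of the 8 the nearest tested gene on each side and at most 3 called of 10 neighbours, and the 2 genes with the highest r. Other genes were named after their values were seen, and some genes within the rule are not reported here. The lists of relatives were written by hand, and the closest relative by protein identity was not determined. Symbols were found for 55854 gene IDs. Positions are from RefSeq (GRCh38.p14) by symbol, for 11527 tested genes. Shared stretches of 75 bases were counted in GENCODE transcripts, without coordinates. Alternatives were pseudocounts of 0.1 and 0.01, no filter, a filter at 5 FPKM, quantile normalization, upper quartile scaling, a robust prior, a block for the replicate number, a threshold of 0.05, and fits that each omitted 1 library. Python 3.11.15, numpy 2.4.6, pandas 2.3.3 and matplotlib 3.10.9 were used.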

Additional observations from a re-analysis of the deposited data

How the results depend on the processing

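The differences of the 8 genes kept their direction, and so did the calls among relatives and neighbours. Some medians over neighbours changed sign, and upper quartile scaling changed which side held more calls over all tested genes. With 3 libraries per rescue, 1 clone per mutant and an unknown depth, what can be told is limited. Low levels depend on the pseudocount. With pseudocounts of 0.1 and 0.01 the log2 difference was 7.71 and 8.40 for SCIN, 3.38 and 3.55 for FYN, 5.09 and 6.83 for LPL, −2.71 and −2.77 for FAM171A1, −3.34 and −3.40 for CDH18 and −2.60 and −2.63 for DCAF4L2. Upper quartile scaling and quantile normalization each gave 1.55 for ALDH1A1. With 1 library left out the difference ran from 5.46 to 5.53 for SCIN, 2.25 to 2.57 for FYN, 2.28 to 2.48 for LPL, 1.48 to 1.52 for ALDH1A1, −2.27 to −2.16 for FAM171A1, −2.96 to −2.80 for CDH18, −2.37 to −2.28 for DCAF4L2 and 0.83 to 1.41 for NEDD4L, with 0.83 reached without the first 2KR-MYB library.

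Of all tested genes 1642 passed, 704 on the 2KR-MYB side and 938 on the ANAA-MYB side. These counts were 942, 393 and 549 with no filter on low values and 3402, 1522 and 1880 at an adjusted p of 0.05. With 1 library left out they ran from 852 to 1204, 317 to 480 and 527 to 724. Leaving out the third 2KR-MYB library gave 1204, and each of the other libraries moved the total by over 1.5 times, to 852 and 892 without the first and second 2KR-MYB libraries and 992, 902 and 1045 without ANAA-MYB libraries 1, 2 and 3. Calls higher with 2KR-MYB made up 42.9% of the total, 54.5% after upper quartile scaling (949 beside 792 on the ANAA-MYB side) and 49.6% after quantile normalization. Which side held more calls thus depended on the scaling. Of the relatives and partners 14 passed, 25 at an adjusted p of 0.05 and 7 to 10 with 1 library left out, from 7 without the second ANAA-MYB library to 10 without the third 2KR-MYB library.

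The replicate block gave 1089 calls, 411 of them higher with 2KR-MYB, and 9 relatives and partners that passed, losing CSK, YES1, DDB2, DCAF7 and DCAF10. Of the neighbours named, it lost NAT1 and PURPL. Same-numbered libraries did not deviate together (correlations of −0.0523, −0.0353 and −0.00258), so the numbers were not taken to pair the samples.

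With no filter on low values the median over 10 neighbours was 0.00053 for SCIN, −0.063 for LPL, −0.052 for FAM171A1, −0.0079 for DCAF4L2 and 0.12 for NEDD4L. With a mean of at least 5 FPKM it was 0.062 for SCIN, −0.015 for FYN, −0.64 for LPL, −0.014 for DCAF4L2 and 0.041 for NEDD4L. Upper quartile scaling gave 0.06 for ALDH1A1 and 0.21 for NEDD4L. Both filters choose other neighbours. The calls of TRIO and PMAIP1 were lost with no filter (adjusted p of 0.015 and 0.019). With 1 library left out the medians ran from −0.12 to −0.013 for SCIN, 0.11 to 0.18 for FYN, −0.60 to −0.55 for LPL, −0.003 to 0.034 for ALDH1A1, −0.19 to −0.12 for FAM171A1, −0.10 to −0.055 for CDH18, 0.035 to 0.079 for DCAF4L2 and 0.11 to 0.21 for NEDD4L.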

Other observations

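Markers of other lineages differed between the rescues as well, and their part in the differences of the 8 genes was not tested. Among the erythroid markers, the factors GATA1 and KLF1 and the transferrin receptor gene TFRC were lower with 2KR-MYB (differences of −0.45, −0.65 and −0.29), each with an adjusted p under 0.01 in limma. The 7 megakaryocyte markers summed to 5.01 to 6.43 FPKM with 2KR-MYB and 7.67 to 8.97 FPKM with ANAA-MYB. Of these, 0 of the 2 tested passed in limma, though both had an unadjusted p under 0.05, which was common over all tested genes. The 3 myeloid markers summed to under 1 FPKM in every library. The 4 epithelial or stromal markers, led by KRT8, summed to 327 to 384 and 327 to 344 FPKM. COL1A1 was higher with 2KR-MYB and COL1A2 lower, and COL1A1 reached the level for testing through its 2KR-MYB libraries.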
